A study of Mus musculus with 24 samples.

Results

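The comparison described here was that of stimulated with resting mouse CD4+ T cells, 6 of the 24 small RNA libraries of the series, with 3 libraries a side. Its members were all features of the deposited count files, taken by name and biotype after lines repeated in full had been dropped, which left 4408 features; the series as a whole holds the same 4408. The CD4+ T cells were those of C57BL/6 mice, taken from the lymph nodes and the spleen. Stimulated cells had 3 days of culture on plates coated with an antibody to CD3 at 2 µg/ml, in medium that held 5 µg/ml of an antibody to CD28; these engage the T cell receptor and its costimulatory receptor. Resting cells had themselves gone through 2 days of stimulation and 1 day of expansion, after which they rested for 2 days in medium with IL2. The resting group is therefore one of previously activated cells and not of naive cells, and stimulation cannot be told apart from culture time and IL2. A further group, DMSO-stimulated cells (3 libraries), had received 3 days of stimulation together with the solvent DMSO; no antibody dose is given for it. It is not stated whether replicates came from separate mice or cultures, so the p-values measure only the spread between libraries. For the tests of single features that spread was estimated over all 24 libraries of the series.

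A miRNA is cut from a hairpin precursor and guides an Argonaute protein to mRNAs that pair with its seed, bases 2 to 8 of the mature strand. Activation of a T cell is known to change its miRNAs widely: miR-155 and miR-146a are induced through the antigen receptor and NF-κB, and miR-150 is known as a miRNA of mature resting lymphocytes that is lost on activation. tRNA fragments, snoRNAs, snRNAs and pieces of rRNA make up most of the other short RNAs of a cell. In these libraries a long gene's count is one of short fragments mapped within its bounds, which does not measure its mRNA.

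The files held 1962923 to 2268358 counts per resting library and 2254908 to 2742635 per stimulated library, and libraries of 1 group differed by more than sampling noise (chi-square per degree of freedom 3.54 to 17). The smallest count in any library was 4, so a feature with fewer reads in any 1 of the 24 libraries is not listed, and an RNA present in only 1 state cannot be seen. All of the miRNAs chosen as markers of T cells or leukocytes were listed, among them Mir142, Mir150 and Mir155. Of 16 T cell identity genes 3 were listed (Cd3e, Cd247 and Ptprc). Of the markers of other cell types, 1 of 7 for B cells (Pax5, 7.037 to 23.97 CPM in resting and 7.403 to 10.44 CPM in stimulated libraries), 1 of 6 for erythroid cells (Mir451a) and 2 of 4 for platelets and endothelium (Mir126a and Mir126b, which share their reads, 109.9 to 116.7 and 101.1 to 114.9 CPM) were listed, as were 2 of 7 for epithelium (Mir141 and Mir200c together, 88.84 to 103.3 and 108.5 to 141.2 CPM). No myeloid, liver, muscle, stromal or neural marker was listed, which leaves them below the reporting limit and not at a measured 0.

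The miRNAs on which the results turn are shown first, as mature strands from RefSeq (GRCm38.p6), with the seed in capitals. The deposited counts are per precursor and do not separate the arms, so the strand shown is the one usually taken as the guide. Of the 254 miRNA precursors, 184 had a mature sequence in the table by symbol. Those lower in stimulated cells included these:
miR-139-5p: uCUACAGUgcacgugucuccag
miR-26a-5p: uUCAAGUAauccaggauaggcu
miR-26b-5p: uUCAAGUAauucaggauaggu
miR-16-5p: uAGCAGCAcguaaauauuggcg
miR-322-5p: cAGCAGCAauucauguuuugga
let-7b-5p: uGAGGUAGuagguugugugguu
miR-210-3p: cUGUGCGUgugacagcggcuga
miR-221-3p: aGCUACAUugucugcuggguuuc
miR-222-3p: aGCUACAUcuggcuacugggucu

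Those higher in stimulated cells included the next group, in which miR-132-3p and miR-212-3p share a seed, and miR-497a-5p carries the seed of miR-16-5p and miR-322-5p:
miR-155-5p: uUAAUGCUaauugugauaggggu
miR-146a-5p: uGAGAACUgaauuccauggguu
miR-132-3p: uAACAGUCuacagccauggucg
miR-212-3p: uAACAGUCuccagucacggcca
miR-497a-5p: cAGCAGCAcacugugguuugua
miR-6236: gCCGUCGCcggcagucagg
miR-6240: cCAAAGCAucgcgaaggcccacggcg
miR-2137: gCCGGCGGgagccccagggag

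Which small RNAs differed between the 2 states was asked first of all features. With TMM scaling and edgeR's quasi-likelihood test at an adjusted p under 0.05, 1014 features were higher in stimulated cells (23.0%) and 1019 were lower (23.1%). In 2531 features (57.4%) all 3 libraries of 1 state lay above all 3 of the other. The split depended on the scaling: with plain library totals 1991 were higher (45.2%) and 342 lower (7.76%), and the median log2 fold of all features moved up by 0.82. TMM factors computed over the miRNAs alone moved it up by 1.05, and RLE factors moved it by -0.08. All folds below are on the TMM scale, relative to the typical feature, and a member is said to hold in all 4 scalings where it was called in the same direction with TMM, RLE, library totals and miRNA-only TMM. By that measure 946 features were higher and 222 lower. Library totals and miRNA-only TMM move the folds up and RLE moves them little, so by this measure a rise can hardly be lost. Holding in all 4 scalings is therefore a strict check for a fall and a weak one for a rise.

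The miRNAs as a class made up a smaller part of the counts in stimulated cells. They took 54.5, 54.1 and 53.5% of the counts in the resting libraries and 37.5, 39.8 and 35.3% in the stimulated libraries, without overlap, a difference of -16.5 percentage points (two-sided exact permutation test, p = 0.1, the smallest that 3 against 3 libraries can give; adjusted p = 0.1 over the classes). With long genes that hold a small RNA left out of the total the share went from 82.7 to 54.4%, a difference of -28.3 points. The log2 of miRNA over nuclear tRNA counts went from 4.1 to 3.92, a difference of -0.187 (exact permutation test, p = 0.2). Long genes that hold no listed small RNA went from 5.72 ± 0.209% to 19.1 ± 2.39% and rRNA features from 0.549 ± 0.0743% to 5.66 ± 0.685% (SD, n = 3). A share that grows lowers the others, so a fall in share is not by itself a fall in amount per cell. Fewer molecules per cell and a larger pool of other fragments cannot be told apart in these libraries.

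Within the class, falls outnumbered rises with TMM. The class holds 60 precursors of 1 cluster within Sfmbt2 on chromosome 2, of which 6 were lower, 0 higher and 54 had no call. It also holds pairs to which the same reads were assigned, such as Mir142 with Mir142b and Mir497 with Mir497b. The counts that follow take each entry as 1 precursor. Of 254 precursors 125 were lower and 23 higher, against 23.1% lower and 23.0% higher over all features, with a median log2 fold of -0.64. That median was 0.17 with library totals and 0.40 with miRNA-only TMM, where 98 were higher and 55 lower, so the overall direction of the class turns with the scaling. Of the individual members, 22 of the 23 rises and 55 of the 125 falls held in all 4 scalings. The plot of mean miRNA levels shows the bulk of abundant precursors below the diagonal, with Mir155 and Mir146 above it.

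**Figure D1:**
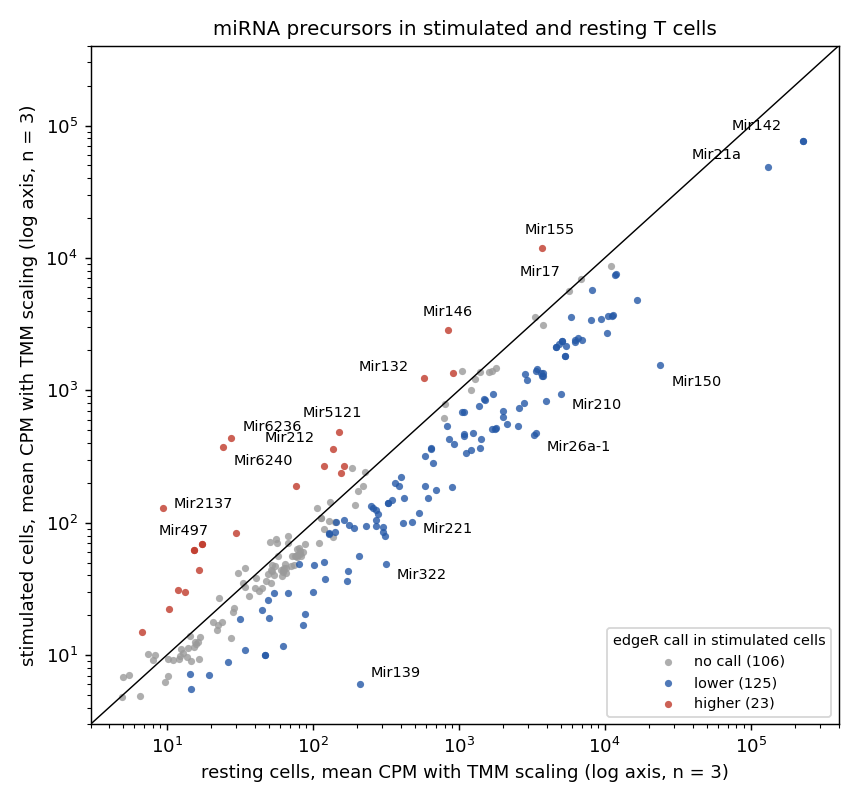
Mean level of each of the 254 miRNA precursors in resting cells (x axis) and stimulated cells (y axis), in CPM with TMM scaling on log axes, coloured by the edgeR call. On this scale 125 precursors were lower and 23 higher in stimulated cells (62 higher and 70 lower with library totals); Mir139 lies farthest below the diagonal and Mir6236, Mir6240 and Mir2137 farthest above it.

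The most abundant precursor was Mir142, which marks blood cells, at 243200, 238600 and 208800 CPM in resting libraries and 74310, 90670 and 66150 CPM in stimulated ones. It fell by 1.58 on the log2 scale (SE 0.27, adjusted p = 1.93e-05). Mir142, with Mir142b and Mir142hg, to which the same reads were assigned, took 39.2 ± 2.61% of resting and 22.9 ± 1.28% of stimulated counts (SD, n = 3). Mir21a, second in abundance and often raised in dividing cells, stood at 127200, 130200 and 136400 CPM against 45940, 66800 and 34270 CPM, a log2 fold of -1.42 ± 0.30. Of the other 8 most abundant precursors, Mir150, Mir29a, Mir16-1, Mir16-2, Mir19b-1 and Mir19b-2 also fell, Mir92-1 had no call (-0.33 ± 0.24, adjusted p = 0.283) and Mir155 rose. The falls of Mir19b-1 (-0.67) and Mir19b-2 (-0.66) turned to 0.15 and 0.16 with library totals.

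The largest fall was that of Mir139 (chromosome 7, 101475376 to 101475443, plus strand, in an intron of Pde2a), a miRNA known to be repressed in effector T cells. Its level was 190.1, 224 and 216.4 CPM in resting libraries and 6.408, 7.955 and 3.702 CPM in stimulated ones, a fall of 35.2-fold (log2 fold -5.14 ± 0.38, adjusted p = 1.88e-11). Fragments counted for its host gene Pde2a hold those of Mir139, and their log2 folds were -4.13 to -4.04. Over its entries Pde2a had means of 214.9 to 215.4 CPM in resting and 12.27 to 13.09 CPM in stimulated cells. Mir139 alone had means of 210.2 and 6.022 CPM. Nearly all of the resting Pde2a count is thus that of Mir139, so these folds show no separate fall of the host. Mir150 (chromosome 7, 45121757 to 45121821, plus strand, in no annotated gene), which restrains Myb in lymphocytes, went from 22850, 22530 and 26990 CPM to 1382, 1910 and 1393 CPM. That was a fall of 15.4-fold (log2 fold -3.95 ± 0.24, adjusted p = 5.81e-13). For both, every resting library stood far above every stimulated one, and library totals left log2 folds of -4.33 and -3.15.

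The miR-26 precursors, which share the seed UCAAGUA and lie within the Ctdsp phosphatase genes, fell together. Mir26a-1 (chromosome 9, 119031796 to 119031885, plus strand, in an intron of Ctdspl) had 3380, 3182 and 3524 CPM in resting and 558.9, 318.7 and 551.9 CPM in stimulated libraries, a log2 fold of -2.82 ± 0.21 (adjusted p = 1.99e-11). Mir26a-2, within Ctdsp2, gave -2.83 ± 0.21, but its mature strand is identical to that of Mir26a-1 and the reads of both may be shared. Mir26b, within Ctdsp1, went from 3860, 3985 and 4018 CPM to 955.5, 673.2 and 876.2 CPM (-2.24 ± 0.19). Mir101a fell by 1.78 on the log2 scale, while Mir101b had no call (-0.23 ± 0.24; 0.57 with library totals). Of 15 precursors in the list of naive and resting T cell miRNAs, 13 were lower (86.7%) and 0 higher, with a median of -1.75. For comparison, 49.2% of all miRNA precursors and 23.1% of all features were lower. The 49.2% takes in the Sfmbt2 cluster, in which only 6 of 60 precursors were lower. Of the 13 falls, 9 held in all 4 scalings. The list was chosen with earlier results of these data known.

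Members of 1 seed family had opposite calls in that of miR-15 and miR-16, miRNAs that restrain the cell cycle and Bcl2. Mir15a (-1.53 ± 0.32), Mir15b (-1.53 ± 0.20), Mir16-1 (-1.63 ± 0.26) and Mir16-2 (-1.62 ± 0.26) fell, and so did Mir322 of the X-linked cluster that also holds Mir351 and Mir503. Mir322 (chromosome X, 53054255 to 53054349, minus strand) went from 301.7, 337.6 and 312.3 CPM to 54.11, 45.74 and 45.16 CPM (-2.71 ± 0.27, adjusted p = 6.68e-09), and Mir351 gave -2.42 ± 0.39. Mir497 (chromosome 11, 70234717 to 70234800, plus strand), with the same seed AGCAGCA, rose instead, from 25.62, 10.97 and 9.675 CPM to 59.09, 76.07 and 52.56 CPM. Its log2 fold was 2.01 ± 0.30 (adjusted p = 3.65e-06), at a level far below that of Mir16-1. Its reads were assigned in equal number to Mir497b on the opposite strand, so the strand of origin is not given by the counts.

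All 12 let-7 precursors, whose family restrains growth genes and cytokines, fell (median -1.47), 9 of them in all 4 scalings, while 2 of the 12 changed sign with library totals. The largest was Mirlet7b, from 827.4, 893 and 974.6 CPM to 174.4, 244.1 and 143.3 CPM (-2.26 ± 0.24), followed by Mirlet7c-1 (-2.01 ± 0.24) and Mirlet7c-2 (-1.99 ± 0.24). Of the miR-30 family 5 of 6 fell in all 4 scalings (Mir30b, Mir30c-1, Mir30c-2, Mir30d and Mir30e, -1.82 to -1.55), and Mir30a had no call (-0.40 ± 0.36). All 6 miR-181 precursors, which tune T cell receptor signalling in the thymus, fell, from -1.06 ± 0.25 for Mir181b-1 to -1.75 ± 0.23 for Mir181b-2, and 3 of these falls held in all 4 scalings.

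Of the miR-29 family, known to restrain interferon-γ in T cells, all 4 precursors fell, with Mir29a at -1.80 ± 0.26, Mir29b-2 at -1.26 ± 0.35 and Mir29c at -1.24 ± 0.22; only Mir29a held in all 4 scalings. Mir29b-1 was called at -1.10 ± 0.33 (adjusted p = 0.00827), and the call was lost without resting replicate 3 (-0.84, adjusted p = 0.0626). The miR-23, miR-27 and miR-24 clusters were lower in all 6 precursors with TMM (-1.44 to -0.72), in none of them in all 4 scalings. Mir27a (-0.72 ± 0.26, adjusted p = 0.027) turned to 0.08 with library totals and lost its call without resting replicate 1 (-0.66, adjusted p = 0.0783), resting replicate 3 (-0.70, adjusted p = 0.0602), stimulated replicate 1 (-0.62, adjusted p = 0.105) or stimulated replicate 3 (-0.63, adjusted p = 0.0884). With TMM Mir148a fell by 1.40 and Mir148b by 0.90 on the log2 scale, and Mir148b turned to 0.13 with miRNA-only TMM. Of the miR-99, miR-100 and miR-125 family Mir125a fell by 1.25, and Mir99b had no call (-0.64 ± 0.28, adjusted p = 0.0678, and 0.18 with library totals). Of Mir130a, Mir130b, Mir301 and Mir301b 2 of 4 were lower and 0 higher, of Mir34a, Mir449a and Mir449c 1 of 3 lower and 0 higher, and none of the falls in these 4 families held in all 4 scalings.

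**Figure D2:**
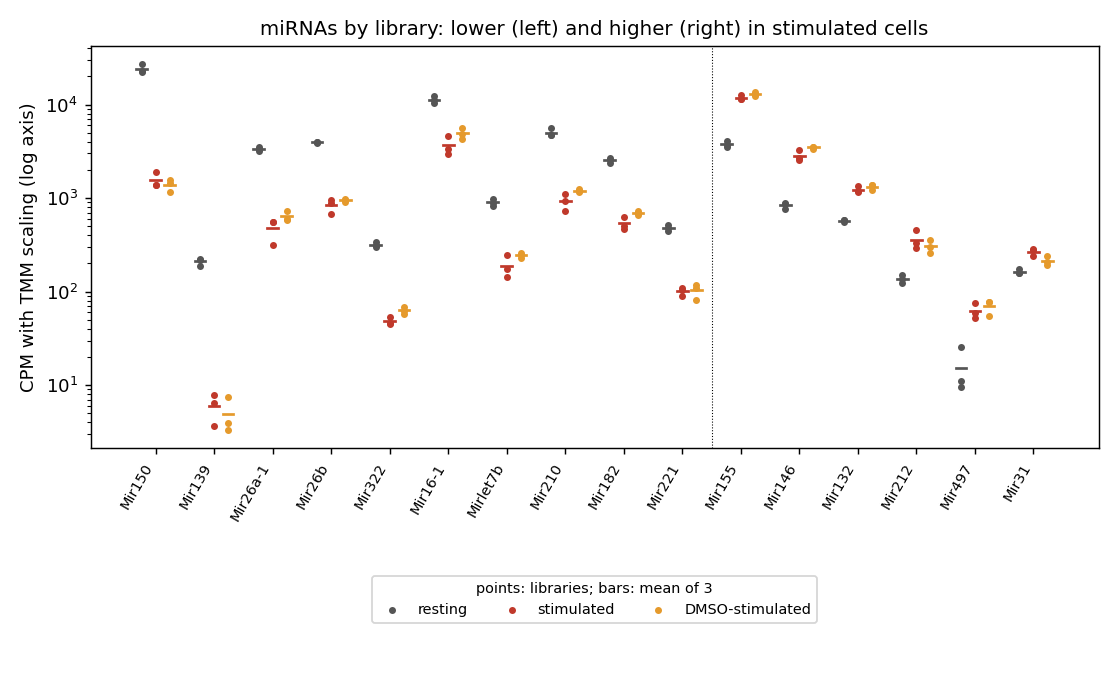
Level of 16 miRNA precursors in each library, in CPM with TMM scaling on a log axis, with points for the 3 libraries of resting, stimulated and DMSO-stimulated cells and a bar at their mean. The 10 precursors left of the dotted line were lower and the 6 to its right higher in all 3 stimulated than in all 3 resting libraries, and the DMSO-stimulated libraries lie near the stimulated ones.

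The paralogous clusters that share the seed AAAGUGC did not move as 1 group. Mir17 (chromosome 14, 115043671 to 115043754, plus strand), first precursor of the proliferation-linked miR-17 to 92 cluster, had 6638, 7020 and 6980 CPM in resting and 7007, 6966 and 6748 CPM in stimulated libraries (log2 fold 0.01 ± 0.17, adjusted p = 0.981), and the groups overlapped. Mir18 (0.10 ± 0.22) and Mir20a (-0.02 ± 0.18) had no call either. Mir19a was called at -0.50 ± 0.20 (adjusted p = 0.0366) and turned to 0.31 with library totals; its call was lost without resting replicate 1 (-0.52, adjusted p = 0.0619) or 3 (-0.43, adjusted p = 0.125), or without stimulated replicate 1 (-0.53, adjusted p = 0.0635), 2 (-0.49, adjusted p = 0.0786) or 3 (-0.51, adjusted p = 0.0714). In the X-linked paralog Mir106a (-0.08 ± 0.17), Mir18b, Mir20b, Mir92-2 and Mir363 had no call. With library totals 4 of 6 members of each of these 2 clusters were higher and 0 lower. The remaining paralog, within Mcm7 on chromosome 5, fell as a whole: Mir106b by 1.53, Mir93 by 1.42 and Mir25 by 1.25 on the log2 scale, of which 1 held in all 4 scalings. Mir106b went from 3418, 3679 and 4116 CPM to 1226, 1550 and 1107 CPM (SE 0.21, adjusted p = 1.29e-06).

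The list of miRNAs known to be induced in activated T cells split in these data. Of 17 precursors 5 were higher (29.4%) and 10 lower (58.8%), with 5 rises and 6 falls in all 4 scalings. Of all miRNA precursors 9.06% were higher and 49.2% lower, and of all features 23.0% and 23.1%. The miRNA shares take in the Sfmbt2 cluster, with 0 of 60 precursors higher and 6 lower. Mir155 (chromosome 16, 84714140 to 84714204, plus strand, in an exon of Mir155hg), which cells need for normal effector responses, rose from 3485, 3670 and 4086 CPM to 11440, 12720 and 11330 CPM. Its rise was 3.16-fold (log2 fold 1.66 ± 0.18, adjusted p = 2.05e-08), with no overlap. Mir146 (chromosome 11, 43374397 to 43374461, minus strand), the precursor of miR-146a and a brake on NF-κB signalling, rose 3.38-fold, from 763.7, 871.1 and 889.3 CPM to 2717, 3245 and 2579 CPM (1.76 ± 0.21, adjusted p = 1.94e-07). Its paralog Mir146b, with the same seed GAGAACU, had no call at 35.54, 34.47 and 33.42 CPM against 40.23, 61.65 and 34.8 CPM (0.39 ± 0.32, adjusted p = 0.338).

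Mir132 and Mir212, targets of CREB that lie within 1 kb of each other on chromosome 11 (75173388 to 75173747, plus strand), rose together. Mir132 had 576.9, 557 and 589.3 CPM in resting and 1188, 1344 and 1166 CPM in stimulated libraries (1.10 ± 0.21, adjusted p = 8.67e-05). Mir212, the less abundant, had 124.8, 137.1 and 151.3 CPM against 290.1, 454 and 335 CPM (1.38 ± 0.23, adjusted p = 1.88e-05). Mir31 rose by 0.71 ± 0.23 (adjusted p = 0.0118).

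The members of that list that fell included some of the clearest changes. Mir210, induced by hypoxia-inducible factor, went from 4677, 4765 and 5553 CPM to 940.5, 1118 and 735.9 CPM (-2.42 ± 0.23, adjusted p = 3.9e-09). Mir182, Mir96 and Mir183, 1 cluster on chromosome 6 (30165918 to 30169737, minus strand) induced by IL2 through STAT5, fell by 2.25, 2.17 and 1.74 on the log2 scale, all in all 4 scalings. Mir182 had 2394, 2717 and 2550 CPM in resting and 507.6, 635.9 and 470.5 CPM in stimulated libraries. Mir221 and Mir222, which share a seed and lie together on chromosome X (19146294 to 19146971, minus strand), fell by 2.24 and 2.07, with Mir221 at 443, 480.2 and 510.2 CPM against 102.9, 90.49 and 110.7 CPM (SE 0.20, adjusted p = 7.16e-10). The resting cells had been activated earlier and then kept in IL2, and in these falls the stimulation of one group cannot be told apart from the earlier treatment of the other.

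The highest miRNA folds belonged to 3 sparsely described loci. Mir6236 (chromosome 9, 110281287 to 110281409, plus strand) rose 15.7-fold, from 30.58, 23.5 and 29.03 CPM to 415.1, 437 and 454.6 CPM (3.97 ± 0.26, adjusted p = 1.16e-12). Mir6240 gave 3.94 ± 0.28 and Mir2137, within Zfp185, 3.77 ± 0.34. Their mature strands were found whole in no other GENCODE M21 transcript than their own. Only exact matches to annotated transcripts were searched, so this cannot show where the reads come from. A ribosomal or repeated origin was not tested. Mir5121 rose by 1.69 ± 0.23, but its mature strand also stands in the transcripts of Snord33 and Rpl13a, whose counts were higher by 1.43 ± 0.20 and 1.02 ± 0.17, so these reads may be 1 set. Mir1949 (1.39 ± 0.27) is annotated as a snoRNA too, and Mir5099, which lies in no other annotated gene, rose from 32.24, 32.12 and 24.63 CPM to 80.81, 95.96 and 75.89 CPM. Mir451a, an erythroid miRNA and the 1 erythroid marker of 6 that was listed, was at 31.41, 10.97 and 9.675 CPM in resting and 58.38, 83.53 and 64.41 CPM in stimulated libraries (1.98 ± 0.39); the part of other cells in this rise was not tested.

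Other classes of small RNA were compared with the miRNAs on the same scale, where the background remained 23.0% higher and 23.1% lower. All 70 rRNA features were higher (median 2.31) and held in all 4 scalings; 55 of them are annotated copies of 5S rRNA that can share reads. Rn18s-rs5, a ribosomal RNA feature, stood at 3272, 3494 and 3655 CPM in resting and 31150, 29660 and 30010 CPM in stimulated libraries (log2 fold 3.12 ± 0.18, adjusted p = 2.18e-13). Among the copies of 5S rRNA, n-R5s5 (2.92 ± 0.35) and n-R5s89 (2.87 ± 0.33) led.

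**Figure D3:**
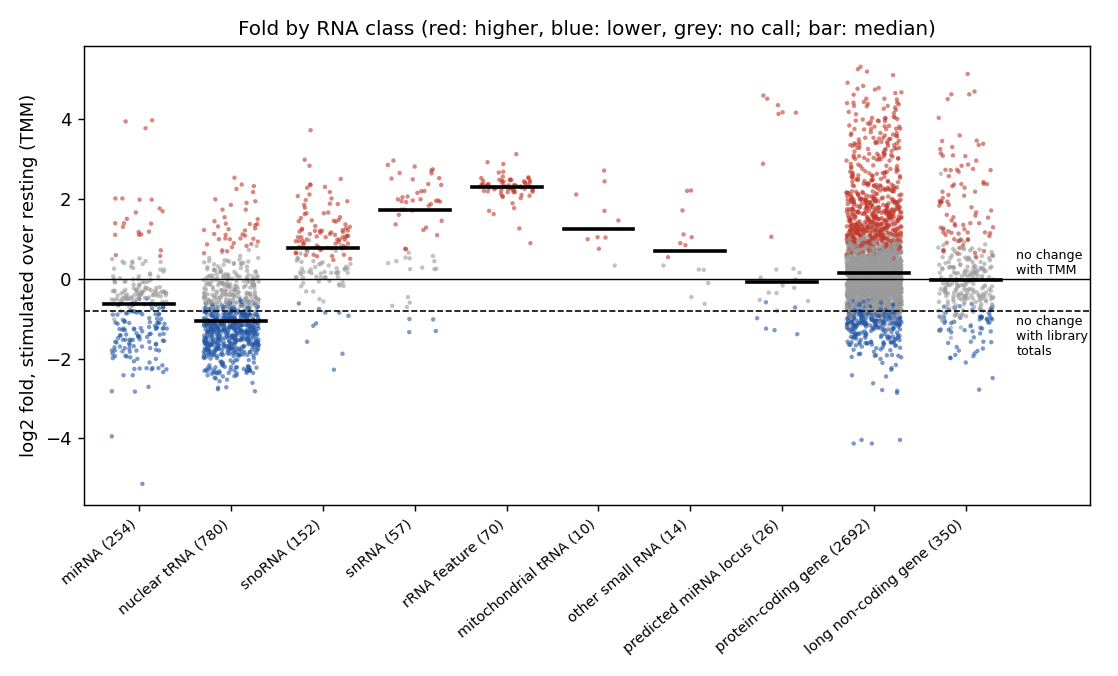
Log2 fold of each feature in stimulated over resting cells with TMM scaling (y axis) by RNA class (x axis, number of features in brackets), with a bar at the class median and the colour giving the edgeR call; the 3 Y and vault RNAs are not drawn. The median lies at 2.31 for rRNA features and 1.73 for snRNAs, and at -0.64 for miRNAs and -1.05 for nuclear tRNA features, which become 0.17 and -0.24 with library totals (dashed line).

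snoRNAs, guides for chemical marking of rRNA bases, were mostly higher: 87 of 152 rose and 10 fell, 77 and 2 of them in all 4 scalings, with a median of 0.76. The box H/ACA snoRNAs, which guide pseudouridylation, had 16 of 18 higher and 1 lower (median 1.80), and the box C/D snoRNAs, which guide methylation, 31 of 60 higher and 3 lower (median 0.63), of which Snord43 and Snord85 turned to 0.22 and 0.05 with library totals. Snora16a went from 10.75, 18.8 and 15.83 CPM to 123.2, 129.3 and 106.6 CPM (2.98 ± 0.24), Snora74a gave 2.83 ± 0.30 and Snora68 2.50 ± 0.29. Gm26205, annotated as a snoRNA, rose by 3.72 ± 0.30. The box C/D snoRNA with the highest fold was Snord70 (2.07 ± 0.32). Against this direction Snord2, an abundant box C/D snoRNA, fell from 619.1, 553.8 and 566.5 CPM to 202.2, 283.9 and 280.6 CPM (-1.18 ± 0.23), a call that was lost with library totals (-0.37) and miRNA-only TMM (-0.14).

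The 3 scaRNAs, which guide modification of spliceosomal snRNAs in Cajal bodies, were all lower with TMM, 1 of them in all 4 scalings: Scarna3b by 2.28, Scarna10 by 1.12 and Scarna3a by 0.93. The fall of Scarna3a turned to 0.11 with miRNA-only TMM, and its call was lost without resting replicate 2 (-0.75, adjusted p = 0.114), stimulated replicate 1 (-0.93, adjusted p = 0.0544) or stimulated replicate 3 (-0.84, adjusted p = 0.0692). Scarna3b overlaps Mir1843a, which fell by 2.34, and the 2 hold much the same reads (74.39, 82.25 and 98.51 CPM for each in resting libraries). Snora36b, which overlaps Mir664, fell by 1.58 ± 0.33, and Mir1839, annotated both as a miRNA and as a scaRNA, by 1.88 ± 0.23. Each of these 3 loci is annotated both as a snoRNA or scaRNA and as a miRNA.

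Of 57 snRNA features 38 rose and 4 fell, 36 of the rises in all 4 scalings. The U1 genes Rnu1b6 (16.53, 10.97 and 17.59 CPM against 118.9, 109.9 and 121 CPM; 2.96 ± 0.30), Rnu1b1 (1.87 ± 0.26) and Rnu1b2 (1.83 ± 0.24) led the named ones. Of 7 spliceosomal snRNAs by name the 4 U1 genes, with Rnu1a1 (1.73 ± 0.26), rose, while Rnu11 (0.53 ± 0.24) and Rnu12 (0.25 ± 0.22) of the minor spliceosome and Rnu5g (-0.46 ± 0.31, 0.34 with library totals) had no call. Among the other small RNAs Rpph1, the RNA of RNase P, rose from 20.66, 14.88 and 18.47 CPM to 80.1, 72.59 and 95.13 CPM (2.20 ± 0.23) and Rn7sk, the 7SK RNA that holds back transcription elongation, by 1.71 ± 0.22. Of the 7 features of RNase MRP, RNase P, 7SK and 7SL, among which Rn7sk is listed under 2 annotations with equal values, 5 rose and 0 fell, and Rn7s1 (0.22 ± 0.18) and Rn7s2 (0.23 ± 0.18) of 7SL had no call. The Ro-binding Y RNAs differed from each other: Rny3 fell from 176.9, 174.7 and 182.1 CPM to 63.72, 69.61 and 69.59 CPM (-1.39 ± 0.22, -0.58 with library totals), while Rny1 had no call (0.05 ± 0.20) and neither had Vaultrc5 (0.29 ± 0.31).

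Fragments of mitochondrial transcripts were higher. Of the 10 mitochondrial tRNAs 9 rose, all 9 in all 4 scalings (median 1.25). The isoleucine tRNA mt-Ti had 66.95, 105 and 79.16 CPM in resting and 455.3, 716.5 and 469.7 CPM in stimulated libraries (2.71 ± 0.24, adjusted p = 5.19e-10), mt-Ta gave 2.44 ± 0.28 and mt-Tm 2.11 ± 0.21. Of 9 mitochondrial mRNAs and rRNAs 8 rose, led by mt-Nd5 (2.14 ± 0.26), mt-Co2 (1.93 ± 0.29) and mt-Nd4 (1.90 ± 0.22), parts of the respiratory chain.

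Nuclear tRNA fragments were mostly lower with TMM, which depended on the scaling. Of 780 features 511 were lower and 41 higher with TMM (median -1.05), 195 lower and 107 higher with library totals, and 121 lower and 157 higher with miRNA-only TMM (median -0.01). With loci of 1 anticodon and fragment kind summed, host genes left out and equal features kept once, the table of 3564 features had 779 higher (21.9%) and 630 lower (17.7%), and the 170 tRNA sums 7 higher and 112 lower (median -1.09, and -0.21 with library totals). Of the 31 sums of the 5' kind that the authors name 5FR_1, 29 fell and 0 rose (median -1.70), 14 in all 4 scalings; of the 17 of kind 5FR_2, 16 fell, 11 in all 4. The 35 of the 3' kind 3FR_1 had 22 lower and 2 higher (median -0.78), with only 2 falls in all 4 scalings, the 22 of kind 3FR_2 13 lower and 1 higher (median -0.82), the 8 of kind 3_Internal 5 lower and 0 higher (median -1.03), and the 9 of kind 3FR_1_down 0 lower and 2 higher (median -0.14). No test of the 5' against the 3' kinds was made.

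**Figure D4:**
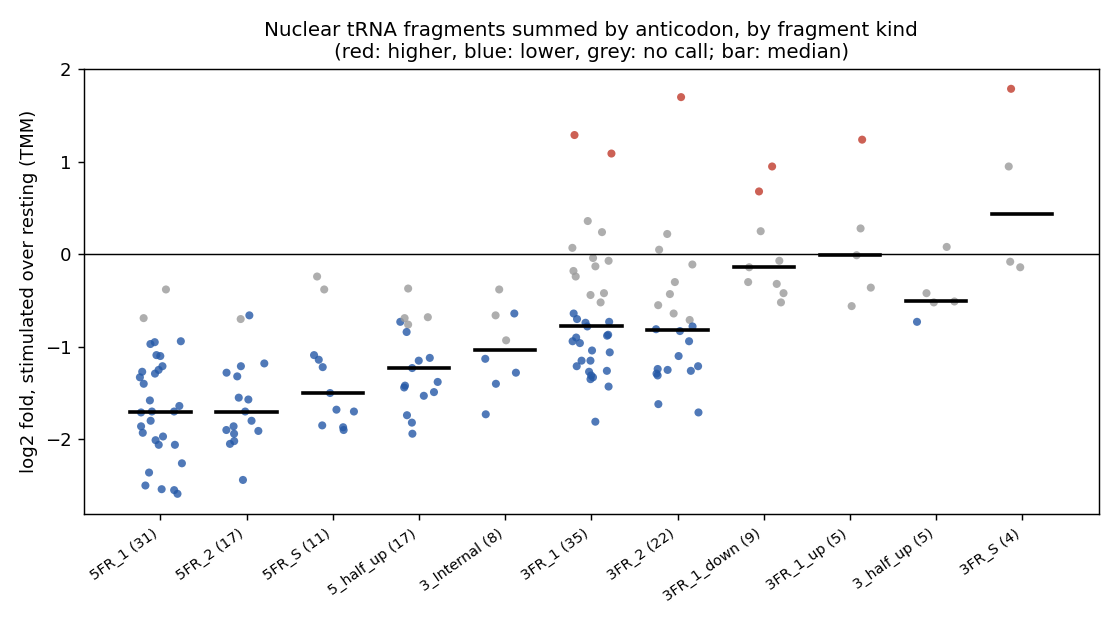
Log2 fold of nuclear tRNA fragments summed by anticodon (y axis, TMM scaling) by the fragment kind that the authors name (x axis, number of sums in brackets; kinds with at least 4 sums), with a bar at the median and colour for the edgeR call. The kinds that start with 5 have medians from -1.70 to -1.23, and 3FR_1 and 3FR_2 of -0.78 and -0.82, which become 0.09 and 0.06 with library totals.

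The lowest tRNA sums were all 5' fragments. The 5FR_1 fragments of tRNA-Arg-ACG had 595.9, 565.5 and 647.4 CPM in resting and 119.2, 89.03 and 99.23 CPM in stimulated libraries (-2.55 ± 0.25), and those of tRNA-SeC-TCA (-2.59 ± 0.41), tRNA-Asn-GTT (-2.54 ± 0.30) and tRNA-Ser-AGA (-2.50 ± 0.24) were close to it. The 5FR_2 fragments of tRNA-Glu-CTC fell from 1044, 1239 and 1322 CPM to 184.8, 244.1 and 235.5 CPM (-2.44 ± 0.25). The highest were 3' fragments: tRNA-Lys-CTT 3FR_S (1.79 ± 0.35), tRNA-Asp-GTC 3FR_2, tRNA-Arg-TCT 3FR_1 (1.29 ± 0.35) and tRNA-Lys-TTT 3FR_1 (1.09 ± 0.26). tRNA-Leu-TAG 3FR_1_up was called at 1.24 ± 0.37 (adjusted p = 0.00853) but not without resting replicate 1 (0.94, adjusted p = 0.0878), resting replicate 2 (1.08, adjusted p = 0.0541) or stimulated replicate 1 (1.04, adjusted p = 0.0503).

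Fragments of a single tRNA could move in opposite directions. The 3FR_2 fragments of tRNA-Asp-GTC, summed over 13 loci, rose from 240.4, 203 and 191.9 CPM to 847.4, 523.7 and 691.6 CPM (1.70 ± 0.26, adjusted p = 6.05e-06). The 3FR_1 fragments of tRNA-Asp-GTC, chosen after their values were seen, fell from 5482 ± 141 to 2177 ± 76.7 CPM (SD, n = 3; log2 fold -1.33 ± 0.18, and -0.45 with library totals). By amino acid, proline sums had 12 of 14 lower and 0 higher, 7 in all 4 scalings, lysine 10 of 13 lower and 2 higher, and leucine 6 of 17 lower and 3 higher.

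Fragments within long genes reached the highest folds of all. Of 2829 long genes without a listed small RNA, 656 were higher (23.2%, against 23.0% of all features) and 284 lower (against 23.1% of all features), 609 and 16 of them in all 4 scalings, so the share of rises was near the background. Fragments in Steap2, the gene of a metalloreductase, had 4.133, 4.7 and 3.518 CPM in resting and 183.3, 139.2 and 174.4 CPM in stimulated libraries (5.31 ± 0.31, adjusted p = 2.18e-13). Those in Kcns3, a potassium channel subunit, gave 5.25 ± 0.26, and in Evc, a ciliary protein, 5.19 ± 0.37. Those in 4933404O12Rik, Ccdc85c and Slc5a11 gave 5.13, 5.10 and 4.91. The resting values of Steap2 stand close to the reporting limit of 4 counts in a library, so the size of its fold is uncertain. The files do not say where in a gene the reads lie.

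The same size of change was seen in predicted miRNA loci and in a few more abundant features, chosen after their values were seen. Gm23935 (chromosome 16, 11144125 to 11144181, plus strand) rose from 75.22, 72.07 and 80.04 CPM to 1633, 1771 and 1787 CPM (4.51 ± 0.24), and Gm25911 by 4.59 ± 0.26. Fragments within Cdk8 went from 464.5, 477.1 and 539.2 CPM to 13070, 12000 and 12210 CPM (4.65 ± 0.20). The rRNA features rose in the same libraries, as given above; whether the fragments in these loci come from repeated or ribosomal sequence was not tested.

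**Figure D5:**
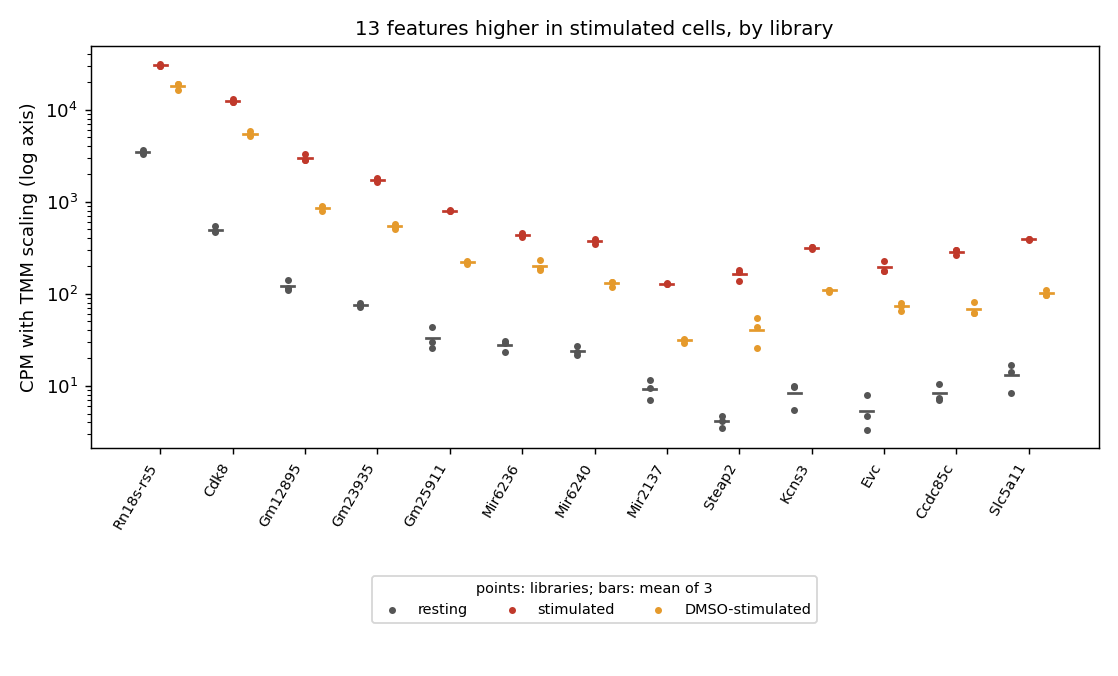
Level of 13 features higher in stimulated cells in each library (CPM with TMM scaling, log axis; points are libraries of resting, stimulated and DMSO-stimulated cells and bars their means). In each of the 13 the DMSO-stimulated libraries lie between the resting and the stimulated ones, as for Steap2 at 53.85, 25.55 and 43.1 CPM.

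Falls were ranked among long genes without a listed small RNA whose 3 libraries of each state did not overlap. At a mean of 20 CPM or more the largest was that of Gm13648. It went from 98.36, 94 and 91.48 CPM to 12.46, 15.91 and 12.96 CPM (-2.78 ± 0.41). Ttll10, which overlaps it, is not counted apart. Next came Wee2, an oocyte kinase (-2.45 ± 0.30), and Vps33b, a vesicle-fusion protein (-2.16 ± 0.27). Rufy4 (-2.11 ± 0.31), Gm26835 (-1.99 ± 0.26) and Gm15218 (-1.98 ± 0.48) followed. Among genes of the translation machinery, 18 of 30 ribosomal protein genes were higher and 0 lower, 17 in all 4 scalings, with Rpl6 (9.092, 5.483 and 13.19 CPM against 106.8, 126.8 and 94.76 CPM; 3.57 ± 0.27), Rpl12 (2.75 ± 0.30) and Rps2 (2.34 ± 0.35) highest; 23 of the 30 hold a listed small RNA whose reads they share. Of 28 snoRNA host genes 16 were higher (57.1%) and 2 lower (7.14%), against 23.0% and 23.1% of all features. The 2 were Eif4a1 and Eif4a2, which turned to 0.28 and 0.04 with library totals. The rises were led by Snhg4 (2.36 ± 0.26), Snhg20 (2.08 ± 0.43) and Snhg3 (1.83 ± 0.21). Most of these host genes hold a listed small RNA whose reads they share. In resting cells Snhg3 had a mean of 78.49 CPM, and Snora73a and Snora73b within it 38.48 and 38.34 CPM. Snhg4 and Snhg20 hold none that is listed.

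Genes of T cell activation and of the naive state gave few listed fragments, and these went both ways. Of 30 activation genes 6 were listed. Fragments in Cd44, the hyaluronan receptor of activated cells, rose from 45.46, 29.77 and 44.86 CPM to 350.6, 322.2 and 330.9 CPM (3.06 ± 0.26). Those in Top2a, a topoisomerase of dividing cells, rose by 1.99 ± 0.26, but Top2a holds the listed small RNA Gm23451 and can share its reads. Those in Irf8, a transcription factor, fell by 1.74 ± 0.29 (-0.94 with library totals, and -0.70 with miRNA-only TMM, where the call was lost). Fragments in Slc7a5, an amino acid transporter, were called at -1.03 ± 0.34 (adjusted p = 0.0145), which was lost without resting replicate 3 (-0.92, adjusted p = 0.0553) or stimulated replicate 2 (-0.91, adjusted p = 0.0586) and turned to 0.05 with miRNA-only TMM. Myc (0.18 ± 0.41) and Nr4a1 (-0.48 ± 0.39) had no call. Of 14 naive T cell genes 6 were listed: Satb1 (2.66 ± 0.29) and Foxo1 (2.23 ± 0.32) were higher, Tcf7 was lower with TMM (-1.53 ± 0.42; -0.71 with library totals and -0.47 with miRNA-only TMM, without a call in either) and Bcl2 had no call (0.14 ± 0.62). Lef1 was called at 0.94 ± 0.31 (adjusted p = 0.0144), but not without resting replicate 1 (0.87, adjusted p = 0.0559) or 3 (0.77, adjusted p = 0.0798). Bach2 was called at -0.62 ± 0.21 (adjusted p = 0.018), but not without stimulated replicate 2 (-0.57, adjusted p = 0.0621) or 3 (-0.60, adjusted p = 0.0521), and it stood at 0.20 with library totals.

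The last comparison asked whether the cells stimulated in DMSO, a second set of stimulated libraries, differed from the stimulated cells. Tested directly, 1279 features differed between the 2 stimulated groups (29.0%), 523 higher and 756 lower in DMSO-stimulated cells. Their changes from resting cells share the resting libraries and are only set side by side. For Mir150 the log2 fold from resting was -3.95 in stimulated and -4.11 in DMSO-stimulated cells, for Mir139 -5.14 and -5.38, for Mir155 1.66 and 1.79, for Mir146 1.76 and 2.05 and for Mir221 -2.24 and -2.20. These 5 were chosen after their values were seen, and the test called no difference between the 2 stimulated groups for any of them (-0.25 ± 0.46 to 0.30 ± 0.21). Of the let-7 precursors 6 of 12, and of the miR-30 precursors 5 of 6, were higher in DMSO-stimulated than in stimulated cells, and 0 lower. The 102 tRNA loci of kind 5_half_up had a median log2 fold from resting of -1.08 in stimulated and 0.42 in DMSO-stimulated cells (38 higher and 4 lower there). Of the 102 loci 96 were higher in DMSO-stimulated than in stimulated cells and 0 lower, against 523 and 756 of all 4408 features. Loci of 1 tRNA can share reads, so these are not 102 separate observations. By anticodon they come to 17 sums, which were not tested between the 2 stimulated groups. The vehicle and any difference in stimulation or culture cannot be told apart.

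Of the 254 miRNAs 43 were higher and 5 lower in DMSO-stimulated than in stimulated cells. The 5 were Mir2137 (-2.05 ± 0.29), Mir6240 (-1.51 ± 0.24), Mir5121 (-1.34 ± 0.22), Mir6236 (-1.12 ± 0.22) and Mir146b (28.37, 24.41 and 14.59 CPM in DMSO-stimulated libraries, adjusted p = 0.0195); the first 4 are among the rises described above. Mir17 (0.50 ± 0.17) and Mir20a (0.85 ± 0.18) were higher in DMSO-stimulated cells. The fragments with the highest folds were lower there: the log2 difference was -2.02 for Steap2, -1.55 for Kcns3 and -2.06 for Ccdc85c. Mitochondrial tRNAs were higher, 9 of 10 by the test, with mt-Ta at 447.6, 470.7 and 468.2 CPM against 121.7, 192.4 and 161 CPM in stimulated cells (1.55 ± 0.25, adjusted p = 3.58e-05).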

How the data were processed

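Small RNA was sequenced from CD4+ T cells and their extracellular vesicles; the cell libraries of resting, stimulated and DMSO-stimulated cells (3 each) are described here. The authors deposited raw counts per feature, made with Bowtie on mm10/GRCm38 per the submitters' processing notes; the counter, its handling of strand and of reads that fit several features, and versions are not given in the sources used here. Each file has 4441 lines, of which 33 repeated in full were dropped. Of 3042 long genes 213 hold a listed small RNA and can share its reads.

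Counts were fitted with edgeR 4.0.16 (R 4.3.3; TMM, quasi-likelihood test, all 24 libraries in 8 groups, which share 1 estimate of spread). Filtering with a minimum count of 10 removed 0 features, and p-values were adjusted by Benjamini-Hochberg over all 4408 features, with calls at an adjusted p under 0.05. The script was tested on simulated counts. CPM are counts per 1000000 with TMM scaling. The value after ± of a log2 fold is a standard error worked back from the test. It is the absolute log2 fold divided by the square root of the quasi-likelihood F statistic. tRNA loci were also summed by anticodon and fragment kind in a table of 3564 features. Class shares were compared by exact permutation. Positions are from GENCODE M21 (GRCm38).

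Features named are the 10 most abundant miRNAs, called features of extreme fold, and list members. The called features are non-overlapping, with a mean of 20 CPM or more in a group. Of highest and lowest fold 10 each were taken for miRNAs, 3 for each other small RNA class and 5 for tRNA sums. For long genes that hold no listed small RNA 6 each were taken. List members are all in lists of up to 6, otherwise the 3 of largest change and any of opposite call. Features outside this rule, chosen after their values were seen, are Cdk8, Gm23935, Gm25911, tRNA-Asp-GTC 3FR_1, Mir503, Snord33, Rpl13a and Pde2a. The members, lists and tests were chosen with earlier results of these data known. Alternatives were DESeq2 1.42.0, other scalings, filters and library sets, a replicate block and leaving out each library.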

Additional observations from a re-analysis of the deposited data

Results flagged for a closer look

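Groups of 3 libraries were not tested for outlying samples. For 10 named features the change from resting cells had opposite signs in stimulated and in DMSO-stimulated cells, and the 2 stimulated groups also differed in the direct test (edgeR's quasi-likelihood test). DMSO-stimulated cells were higher in fragments of Bach2 (log2 difference 0.81 ± 0.21, adjusted p = 0.00469; from resting cells -0.62 in stimulated and 0.19 in DMSO-stimulated cells) and of Eif4a2 (0.87 ± 0.22, adjusted p = 0.00342; -0.78 and 0.09). The same held for Ptprc, which encodes the leukocyte surface phosphatase CD45 (1.52 ± 0.39, adjusted p = 0.00469; -0.22 and 1.30).

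Among miRNAs, Mir18b differed by 0.97 ± 0.26 (adjusted p = 0.00547; -0.24 and 0.73), Mir20a by 0.85 ± 0.18 (adjusted p = 0.000923; -0.02 and 0.83), Mir449a by 1.36 ± 0.20 (adjusted p = 1.41e-05; -1.08 and 0.28) and Mir449c by 1.18 ± 0.28 (adjusted p = 0.0025; -0.21 and 0.98). The snoRNA Snord85 differed by 1.26 ± 0.27 (adjusted p = 0.000822; -0.76 and 0.50) and the snRNA feature Gm24407 by 1.34 ± 0.34 (adjusted p = 0.00426; -1.31 and 0.03). Myc, a growth regulator, went the other way, with fragments lower in DMSO-stimulated cells by a log2 difference of -1.63 ± 0.44 (adjusted p = 0.00668; 0.18 and -1.45). Of these changes from resting cells in stimulated cells, those of Mir18b, Mir20a, Mir449c, Ptprc and Myc did not pass the test.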

How the results depend on the processing

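Scaling moved the counts most. With TMM over miRNAs 2335 features were higher and 222 lower, and with library totals 1991 and 342; among miRNAs these were 98 and 55, and 62 and 70; and with tRNA loci summed they were 1641 and 139, and 1666 and 170. The fall in miRNA share was -28.3 points (82.7 to 54.4%) when long genes that hold a small RNA were left out of the total, and the log2 of miRNA over nuclear tRNA counts changed by -0.187 (exact permutation test, p = 0.2). Leaving out each library gave 915 to 959 features higher and 873 to 966 lower, and a share difference of -15.4 to -17.6 points. DESeq2 gave 921 higher and 1083 lower. Of 180 named features 107 kept direction and call in every setting, and in 27 a value called on either scale changed sign, in each under 1 or both of these 2 scalings.

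The log2 folds of these 27, with library totals and then TMM over miRNAs, were 0.47 and 0.70 for Mir92-1, 0.16 and 0.40 for Mir19b-2, 0.15 and 0.39 for Mir19b-1, 0.31 and 0.56 for Mir19a, 0.80 and 1.04 for Mir20a, 0.74 and 0.98 for Mir106a, 0.56 and 0.80 for Mir18b, 0.51 and 0.75 for Mir20b, 0.53 and 0.76 for Mir92-2, 0.08 and 0.30 for Mir27a, 0.57 and 0.80 for Mir101b, 0.79 and 1.02 for Mir34a, 0.17 and 0.41 for Mir130b, 0.22 and 0.45 for Snord43, 0.05 and 0.28 for Snord85, 0.28 and 0.52 for Eif4a1, 0.04 and 0.26 for Eif4a2, 0.20 and 0.44 for Bach2, 0.50 and 0.72 for Mir363, 0.62 and 0.86 for Mir449c, and 0.74 and 0.97 for Mir126a and for Mir126b. Those that stayed negative with library totals were, with TMM over miRNAs, 0.04 for Gm22710, 0.13 for Mir148b, 0.18 for Mir301, 0.11 for Scarna3a and 0.05 for Slc7a5. The cause was not tested.

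Same-numbered resting and stimulated libraries did not deviate together (r = -0.014, 0.004 and 0.005), so no pairing by number was seen. These values cannot exclude a shared mouse or culture, because a small shared effect can be lost in the spread between libraries. With the replicate block 1011 features were higher and 1024 lower, and it changed no call of the 180 named features. Features under 4 counts in any library are not listed, which limits what depth can show.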
